A study of Homo sapiens with 372 samples.

Results

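Interferon response genes other than the IFITM family were followed through 6 drug conditions in single A2780 cells, a human ovarian cancer cell line. The 9 genes were chosen by name and by role: the receptor chains IFNAR1 and IFNAR2, the transcription factors STAT2 and IRF9, and the interferon-induced genes ISG15, IFI35, IFI6, IFI27 and IFI27L2. Of these 9, 8 were analysed among the 9664 genes listed for the series, and IFI27 was not analysed here. The study itself counted IFI35, IFNAR2 and IFI27L2 among genes raised over 1.5-fold in the control-like part of these cells after 48 h in paclitaxel. Their direction at 48 h is therefore not independent evidence.

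Each library came from 1 cell, captured on a microfluidic chip and read over the full transcript length. The 338 retained cells of 372 were 46 untreated control cells, 56 cells with 5 nM paclitaxel for 16 h, 53 with 5 nM paclitaxel for 48 h, 63 with 75 µM celecoxib for 2 h, 61 with 75 µM celecoxib for 16 h, and 59 with 5 nM paclitaxel and 75 µM celecoxib together for 16 h (the combination). Paclitaxel stabilises microtubules, and celecoxib inhibits cyclooxygenase-2. All conditions used 1 cell line. Since the labels name neither replicate cultures nor capture runs, each condition counts as 1 sample, no p-value was computed, and an SD here is a spread over cells.

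Type I interferons bind the IFNAR1 and IFNAR2 chains on the cell surface, which activates the kinases JAK1 and TYK2. The kinases phosphorylate STAT2, which joins IRF9 in a complex that binds the interferon-stimulated response element (ISRE) before many induced genes. Of the other members, ISG15 encodes a ubiquitin-like protein that is attached to other proteins. IFI6 and IFI27L2 belong to the small hydrophobic FAM14 family together with IFI27 and IFI27L1, and IFI35 encodes an interferon-induced leucine zipper protein. In carcinoma cells interferon-induced genes can be active at a low level without added interferon.

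The 250 bases before the start of transcription are shown for the 4 induced genes. ISG15 and IFI6 carried an ISRE core there, and IFI35 and IFI27L2 did not. A link between these motifs and the expression values was not tested. Capitals mark the ISRE core (2 copies of GAAA with any 2 bases between them, on either strand) and the gamma-activated site (GAS, TTCNNNGAA, which reads alike on both strands). The sequences are from RefSeq on GRCh38.p14: ISG15 at chr1:1013247-1013496, plus strand; IFI6 at chr1:27672193-27672442, minus strand; IFI35 at chr17:43006534-43006783, plus strand; and IFI27L2 at chr14:94129605-94129854, minus strand.
ISG15: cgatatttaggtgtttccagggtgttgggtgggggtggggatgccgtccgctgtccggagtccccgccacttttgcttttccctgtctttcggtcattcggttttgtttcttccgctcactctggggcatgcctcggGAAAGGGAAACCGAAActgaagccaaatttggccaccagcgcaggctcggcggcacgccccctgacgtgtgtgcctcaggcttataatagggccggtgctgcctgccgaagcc
IFI6: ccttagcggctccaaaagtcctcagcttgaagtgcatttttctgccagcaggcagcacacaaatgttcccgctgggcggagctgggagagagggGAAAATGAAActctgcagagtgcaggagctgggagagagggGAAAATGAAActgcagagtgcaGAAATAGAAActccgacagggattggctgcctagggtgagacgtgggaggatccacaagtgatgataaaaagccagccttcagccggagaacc
IFI35: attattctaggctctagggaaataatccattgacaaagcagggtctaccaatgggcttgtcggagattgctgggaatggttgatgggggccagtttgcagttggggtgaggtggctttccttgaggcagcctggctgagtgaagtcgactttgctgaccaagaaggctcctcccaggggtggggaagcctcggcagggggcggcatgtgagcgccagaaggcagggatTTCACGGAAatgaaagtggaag
IFI27L2: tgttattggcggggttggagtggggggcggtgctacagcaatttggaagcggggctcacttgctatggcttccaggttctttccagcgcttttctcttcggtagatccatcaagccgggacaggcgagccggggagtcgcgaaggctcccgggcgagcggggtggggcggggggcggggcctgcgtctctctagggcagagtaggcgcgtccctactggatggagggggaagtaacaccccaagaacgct

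The promoter of ISG15 held 2 overlapping ISRE cores, which began 113 and 107 bases before the start. That of IFI6 held 3, beginning 156, 115 and 93 bases before it. IFI35 had no ISRE core and a GAS match 22 bases before the start, and IRF9 had a GAS match 63 bases before its own. IFI27L2, STAT2 and IFNAR1 had neither motif, which says only that these letters are not in this window. Over windows of the same 300 bases, which run 50 bases past the start, an ISRE core was present in 3.57% of 35116 promoters and in 2.63% of the 11001 promoters of analysed genes, and a GAS in 7.66% and 6.14%. A match describes the sequence and is not a measured binding site.

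**Figure D1:**
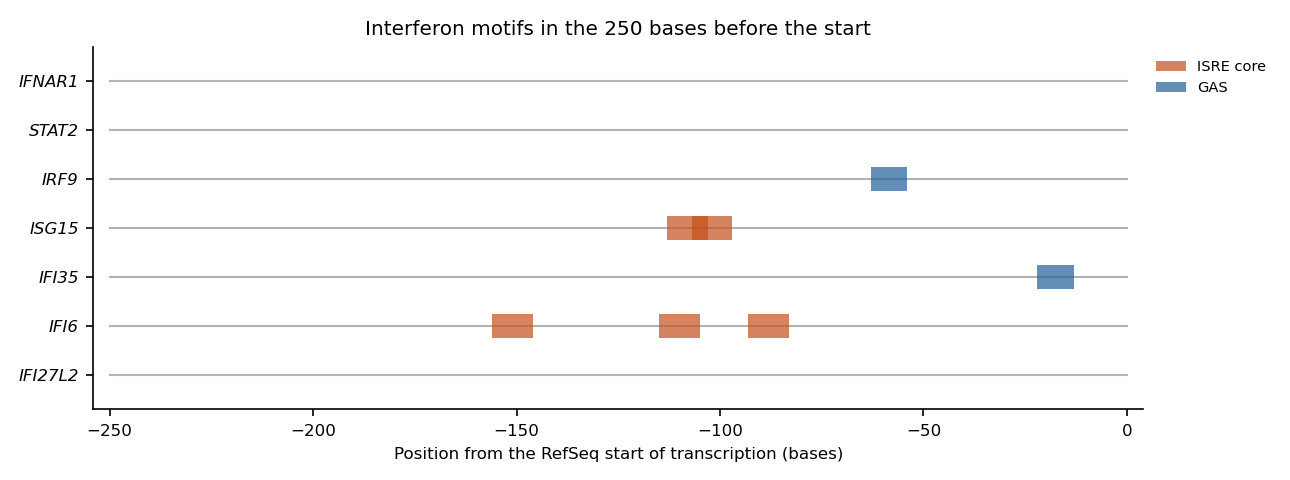
Positions of the ISRE core (orange) and GAS (blue) in the 250 bases before the RefSeq start of transcription of the 7 genes with an entry, with the distance from the start in bases on the horizontal axis. ISG15 and IFI6 are the only 2 of these genes with an ISRE core, and IRF9 and IFI35 the only 2 with a GAS; of 2 IFNAR1 windows neither held a motif.

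Expression was given as an E-value. It equals log2(N/10 + 1), N being the spike-in-scaled TPM of the gene in that cell. A cell counted as detecting a gene when its E-value was above 0, and a gene counted as risen or fallen when its mean E-value over the cells lay more than 0.58 from the control mean, the log2 of a 1.5-fold limit. For a gene near 0 this difference is not a fold change, since N/10 has 1 added before the log. A gene with a control mean below 0.58 cannot fall past the limit, whatever the treatment. All comparisons with control share the same 46 control cells. Because the summed expression per cell differed between conditions, each difference is also given after every cell was set to the same total. On this second scale, the median difference of all genes lay between -0.07 and 0.03 against control, while on the deposited scale it was -0.41 and -0.26 after 16 h and 48 h in paclitaxel, -0.26 and -0.48 after 2 h and 16 h in celecoxib, and 0.33 with the combination.

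The median cell had between 6126 and 6630 genes detected in each condition, with the highest number in the control, and the median total was between 0.348 and 1.40 times that of the control. Read depth was not given, and binomial intervals below cover counting error only. In most cases the condition cannot be told apart from the block of 96 library indices: control cells carried block 4, and only the 48 h paclitaxel cells shared it, with 31 of 53 cells. Of 8 carcinoma markers, KRT18 (mean E-value 0.45 to 1.11 over the conditions) and VIM (1.90 to 3.70) were analysed, with KRT18 detected in 23.9% to 36.5% of cells and VIM in 62.5% to 86.8%. Of 8 leukocyte, fibroblast and endothelial markers, LYZ (0.11 to 0.24) and COL3A1 (0.88 to 1.89) were analysed. LYZ was detected in 37.0% to 60.7% of cells and COL3A1 in 57.4% to 83.0%, each a larger share than that of KRT18 in every condition. The other 6 markers of either list were not analysed here. Their part in the results below was not tested.

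ISG15 was by far the most abundant member and was detected in all 338 cells, while the other 7 ranged from genes found in nearly every cell (IFNAR1) to genes found in about 1 cell of 10 in the control (IFI27L2). In the control cells the mean E-value was 6.40 for ISG15, 2.06 for IFNAR1, 1.71 for IFNAR2, 0.96 for IFI6, 0.92 for IRF9, 0.52 for IFI35, 0.35 for STAT2 and 0.25 for IFI27L2. TPM is scaled by transcript length, so that these levels can be set side by side. The ISG15 mean exceeded 96.6% of all genes in the control, and that of IFI27L2 exceeded 7.92% of them.

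**Figure D2:**
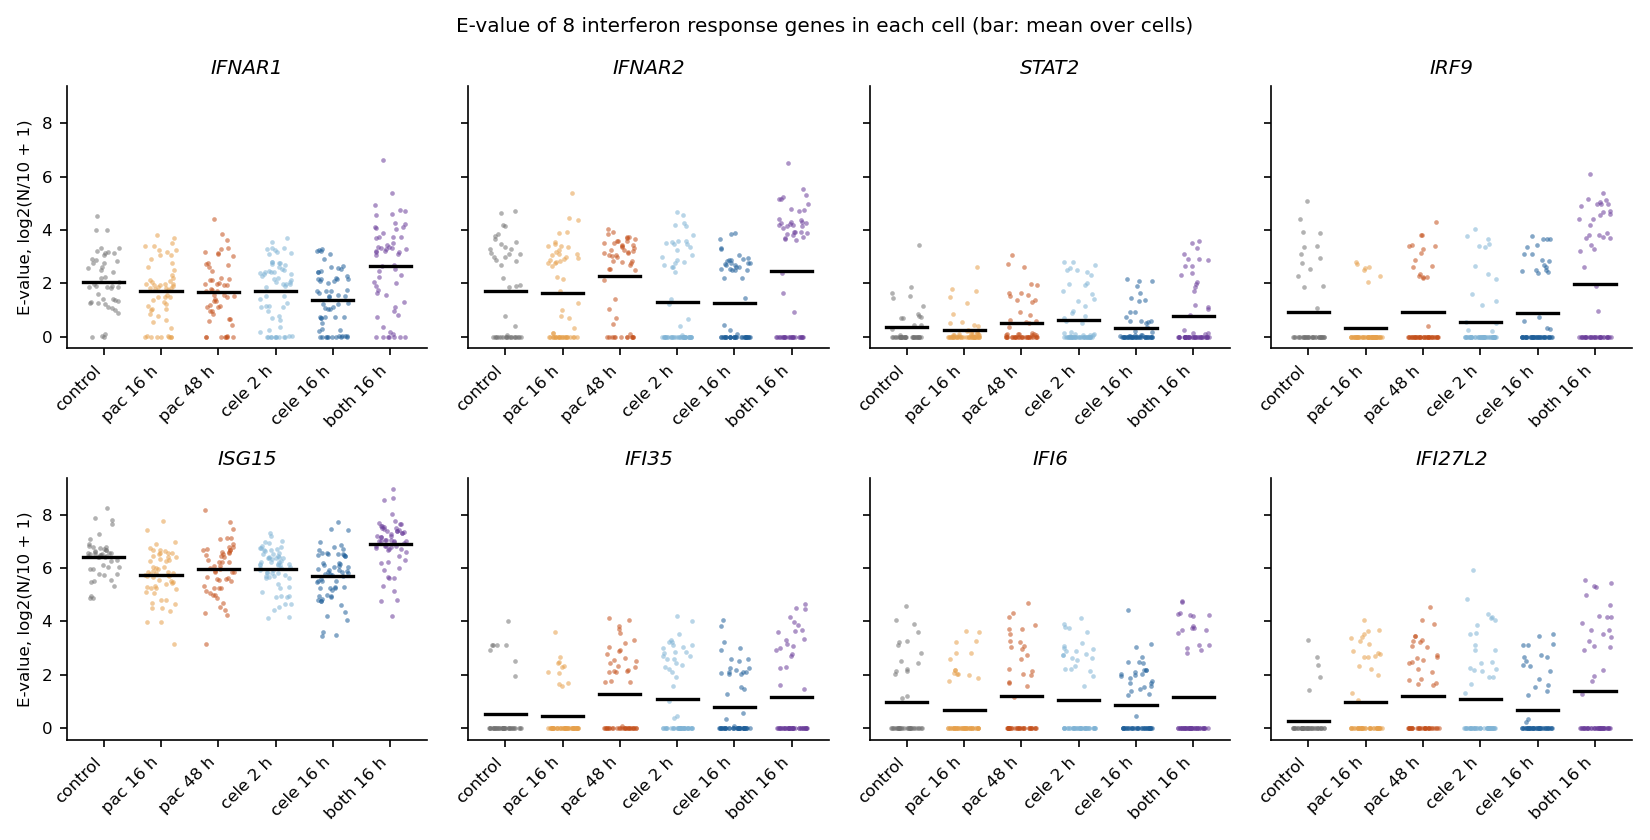
E-value of each gene (vertical axis, log2(N/10 + 1)) in every cell of the control, paclitaxel 16 h and 48 h, celecoxib 2 h and 16 h, and combination 16 h; each point is 1 cell and each bar the mean over the cells. ISG15 lies between 3.14 and 8.95 in all cells, and IRF9, IFI35, IFI6 and IFI27L2 form a row of cells at 0 with a second group mostly between 2 and 5.

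IFNAR1, a signalling chain of the type I interferon receptor (chr21:33324387-33359864, plus strand, hg38), passed the limit on the deposited scale only. Its mean E-value was 2.06 ± 1.08 (SD over 46 cells) in the control, 1.69 ± 1.11 and 1.68 ± 1.13 after 16 h and 48 h in paclitaxel, 1.71 ± 1.16 and 1.38 ± 1.05 after 2 h and 16 h in celecoxib, and 2.65 ± 1.64 with the combination. Single cells ran from 0 to 6.63, with a median of 1.94 in the control and 3.18 with the combination, and the conditions overlapped throughout. On the deposited scale IFNAR1 fell by 0.68 after 16 h in celecoxib and rose by 0.59 with the combination, just past the limit. The 5 same-total differences lay between 0.04 and 0.17, all within the limit.

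IFNAR2, the chain with the higher affinity for the ligand (chr21:33205282-33265675, plus strand), was highest with the combination and after 48 h in paclitaxel. The mean E-value was 1.71 ± 1.70 in the control, 1.62 ± 1.64 and 2.26 ± 1.48 after 16 h and 48 h in paclitaxel, 1.30 ± 1.67 and 1.25 ± 1.43 after 2 h and 16 h in celecoxib, and 2.47 ± 2.21 with the combination. These means came from different patterns over the cells. After 48 h in paclitaxel more cells had the transcript, 77.4% (95% exact interval 63.8 to 87.7%) against 58.7% (43.2 to 73.0%) in the control, at a mean of 2.92 against 2.91 in the cells that had it. With the combination 59.3% of the cells had it, at a mean of 4.17. The 48 h difference was 0.55 as deposited, within the limit, and 0.87 at the same total, past it. For the combination it was 0.76 and 0.36.

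The receptor genes lie close to each other on chromosome 21, and both overlap other annotated genes. IFNAR2 overlaps a read-through transcript with its neighbour IL10RB on the same strand and a long noncoding RNA on the other, and IFNAR1 overlaps a noncoding RNA on the other strand. The libraries do not keep the strand, so that reads of such partners cannot be told apart.

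STAT2, the partner of IRF9 in the ISRE-binding complex (chr12:56341597-56360203, minus strand), stayed low in every condition. Its mean E-value was 0.35 ± 0.69 in the control, 0.23 ± 0.53 and 0.52 ± 0.82 after 16 h and 48 h in paclitaxel, 0.61 ± 0.94 and 0.33 ± 0.61 after 2 h and 16 h in celecoxib, and 0.76 ± 1.18 with the combination. Some of the cells with a value above 0 were close to it: an E-value above 1 was found in 13.0% of the control cells, 8.93% and 22.6% after 16 h and 48 h in paclitaxel, 25.4% and 13.1% after 2 h and 16 h in celecoxib, and 30.5% with the combination. No difference of STAT2 from control passed the limit on either scale, and the largest was 0.41 with the combination on the deposited scale. As folds of linear mean N, with 1 added to each mean, STAT2 stood at 0.638, 1.41, 1.76, 0.834 and 2.70 times the control in the same order.

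IRF9, the DNA-binding subunit of the same complex (chr14:24161234-24168043, plus strand), had the widest range of condition means among the 8 genes, 1.66. The mean E-value was 0.92 ± 1.53 in the control, 0.31 ± 0.84 and 0.91 ± 1.43 after 16 h and 48 h in paclitaxel, 0.55 ± 1.16 and 0.87 ± 1.37 after 2 h and 16 h in celecoxib, and 1.97 ± 2.22 with the combination. It was found in 14 of 46 control cells (30.4%, 95% exact interval 17.7 to 45.8%), in 7 of 56 cells after 16 h in paclitaxel (12.5%, 5.18 to 24.1%) and in 28 of 59 combination cells (47.5%, 34.3 to 60.9%). The combination stood above the control, and paclitaxel at 16 h below it, but both intervals overlap that of the control. IRF9 rose with the combination on both scales, by 1.05 as deposited and 0.66 at the same total. After 16 h in paclitaxel it fell by 0.61 as deposited, while the difference was -0.36 at the same total. IRF9 overlaps a same-strand read-through gene and an antisense RNA, and reads of these cannot be separated from its own.

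ISG15, the ubiquitin-like modifier (chr1:1001138-1014540, plus strand), was present in every cell. The mean E-value was 6.40 ± 0.73 in the control, 5.74 ± 0.89 and 5.95 ± 0.96 after 16 h and 48 h in paclitaxel, 5.98 ± 0.76 and 5.71 ± 0.94 after 2 h and 16 h in celecoxib, and 6.89 ± 0.91 with the combination. Its direction depended on the scale. As deposited, ISG15 fell by 0.65 after 16 h in paclitaxel and by 0.69 after 16 h in celecoxib, and the combination difference of 0.50 stayed within the limit. With totals equalised it rose by 0.69 after 16 h in celecoxib, and the other differences were 0.15, 0.17 and 0.15 after 16 h and 48 h in paclitaxel and 2 h in celecoxib, and -0.19 with the combination. Within each condition, cells with a larger total had more ISG15: Pearson r between its E-value and the log2 total was 0.33 to 0.56 over the 6 conditions, a description over cells whose libraries also set the total. Antisense transcripts are annotated across ISG15 as well.

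IFI35, the interferon-induced leucine zipper gene (chr17:43006740-43014456, plus strand), was found in a larger share of the cells of every treatment than of the control. It was detected in 8 of 46 control cells (17.4%, 95% exact interval 7.82 to 31.4%), in 19.6% and 49.1% (35.1 to 63.2%) after 16 h and 48 h in paclitaxel, in 42.9% (30.5 to 56.0%) and 37.7% after 2 h and 16 h in celecoxib, and in 35.6% with the combination. The intervals after 48 h in paclitaxel and in the control do not overlap, while those of the other 4 treatments overlap that of the control. They count cells of 1 sample per condition and do not test the conditions. The share of all genes with such a gap was not computed, so that the gap cannot be read as a trait of IFI35. Its control share lay below the 30% detection limit, and the study had picked it as raised at 48 h. Such a gap was thus favoured beforehand. The mean E-value was 0.52 ± 1.17 in the control, 0.44 ± 0.94 and 1.28 ± 1.45 after 16 h and 48 h in paclitaxel, 1.10 ± 1.42 and 0.80 ± 1.20 after 2 h and 16 h in celecoxib, and 1.16 ± 1.66 with the combination. In the cells that had IFI35 its mean was 2.99 in the control, 2.26 and 2.62 after 16 h and 48 h in paclitaxel, 2.58 and 2.13 after 2 h and 16 h in celecoxib, and 3.26 with the combination, so that of the treatments the combination alone exceeded the control in this value. On both scales it rose after 48 h in paclitaxel (0.76 as deposited, 0.78 at the same total) and after 2 h in celecoxib (0.59 and 0.61), in the last case just past the limit. It passed on 1 scale only after 16 h in celecoxib (0.28 as deposited, 0.59 at the same total) and with the combination (0.64 and 0.25). From 16 h to 48 h in paclitaxel the mean difference was 0.84 as deposited and 0.77 at the same total, above 97.8% and 97.6% of all genes.

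IFI6, a FAM14 protein found in mitochondria (chr1:27666064-27672212, minus strand), did not pass the limit against control in any treatment on either scale. Its mean E-value was 0.96 ± 1.45 in the control, 0.68 ± 1.18 and 1.19 ± 1.56 after 16 h and 48 h in paclitaxel, 1.04 ± 1.44 and 0.87 ± 1.13 after 2 h and 16 h in celecoxib, and 1.15 ± 1.78 with the combination. It was found in 26.8% to 42.6% of the cells of each condition. The largest difference from control was 0.35, after 48 h in paclitaxel at the same total. As folds of linear mean N, with 1 added to each mean, IFI6 stood at 0.575, 1.29, 0.987, 0.647 and 1.61 times the control in the same order.

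IFI27L2 (chr14:94127779-94130253, minus strand), of the same family, showed the most regular pattern of the 8 genes: it was lowest in the control and higher in all 5 treatments. It was detected in 5 of 46 control cells (10.9%, 95% exact interval 3.62 to 23.6%), in 33.9% (21.8 to 47.8%) and 43.4% (29.8 to 57.7%) after 16 h and 48 h in paclitaxel, in 34.9% (23.3 to 48.0%) and 31.1% (19.9 to 44.3%) after 2 h and 16 h in celecoxib, and in 37.3% (25.0 to 50.9%) with the combination. The intervals after 48 h in paclitaxel and with the combination lie above that of the control, and the other 3 overlap it. As for IFI35, this counts cells of 1 sample per condition and does not test the conditions. The share of all genes with such gaps was not computed here either, so that they cannot be read as a trait of IFI27L2. The mean E-value was 0.25 ± 0.76 in the control, 0.96 ± 1.42 and 1.20 ± 1.48 after 16 h and 48 h in paclitaxel, 1.08 ± 1.63 and 0.69 ± 1.16 after 2 h and 16 h in celecoxib, and 1.38 ± 1.95 with the combination. With totals equalised IFI27L2 rose in all 5 treatments, by 0.76, 0.95, 0.80, 0.66 and 0.70 in the same order. As deposited it rose in 4 of them, by 0.70, 0.95, 0.82 and 1.13, and the difference after 16 h in celecoxib was 0.43. In the low control 5 cells carry the whole signal, so that these differences rest on few cells. The control shares of IFI27L2 (10.9%) and IFI35 (17.4%) lay below the 30% detection limit. Both genes were therefore listed only because their share in a treatment exceeded it. A higher share in some treatment was thus fixed by that limit. Since under 50% of the cells of each condition had IFI35 or IFI27L2, their median over cells was 0 throughout and gave no rise. On the mean E-value a 2-fold limit left IFI27L2 past it with the combination only, and IFI35 in no treatment. As folds of linear mean N, with 1 added to each mean, IFI27L2 stood at 4.15, 5.26, 6.65, 2.54 and 10.7 times the control. IFI35 stood at 0.657, 2.24, 1.91, 1.25 and 2.68 times the control, in the same order of treatments.

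**Figure D3:**
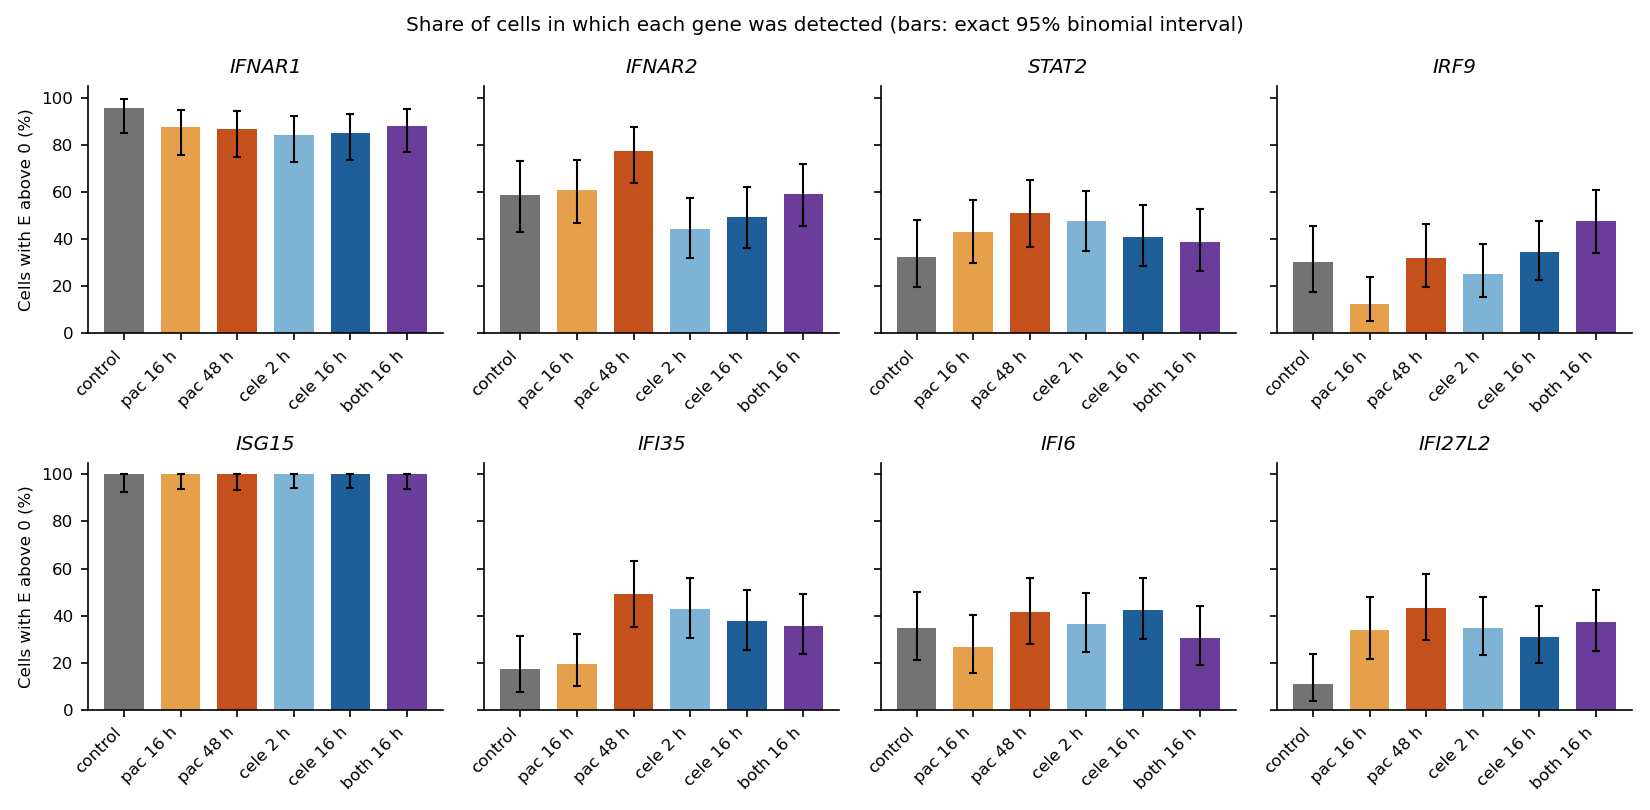
Share of cells with an E-value above 0 (vertical axis, percent) for each gene in the 6 conditions, with exact 95% binomial intervals that cover counting error only. IFI27L2 is lowest in the control at 10.9% and reaches 43.4% after 48 h in paclitaxel, IFI35 goes from 17.4% to 49.1%, and ISG15 is at 100% throughout.

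For each of the 8 genes the 6 conditions were ordered by mean E-value as deposited, and no neighbours in that order differed by more than the SD over cells. The largest gap relative to the SD was 0.685, between the combination and the control for IRF9. On this scale the combination was highest for 6 genes and 48 h in paclitaxel for IFI35 and IFI6. At the same total the combination was highest for IRF9 alone (mean 1.40), and it was lowest for ISG15 (5.67). IFNAR2 and IFI27L2 were then highest after 48 h in paclitaxel (2.27 and 1.18), and STAT2 after 2 h in celecoxib (0.61).

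The members' counts are set here beside those of all 9655 genes past the detection limit. After 16 h in paclitaxel 1 of 8 members (IFI27L2) rose on the deposited scale, where 0.0932% of all genes did, and 2 (IRF9 and ISG15) fell, where 37.3% did. At 48 h 2 members rose (IFI35 and IFI27L2) against 0.922% of all genes, and 0 fell against 26.6%. The members that rose at 48 h are the genes the study had picked from these cells, together with IFNAR2 at the same total. IFI35 and IFI27L2 also passed the detection limit only through treated cells, so that their rises here and below are not independent of it.

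Celecoxib gave counts at 2 h and at 16 h. At 2 h 2 members (IFI35 and IFI27L2) rose against 1.12% of all genes, and 0 fell against 25.7%. At 16 h 0 rose against 0.383%, and 2 fell (IFNAR1 and ISG15) against 43.9%. With the combination 5 members rose (IFNAR1, IFNAR2, IRF9, IFI35 and IFI27L2) against 30.4% of all genes, and 0 fell against 1.76%. On this scale the median over the 8 members was -0.20, 0.20, -0.14, -0.07 and 0.61 for 16 h and 48 h in paclitaxel, 2 h and 16 h in celecoxib and the combination, beside the medians of all genes given above.

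Once totals were equal no member fell against control in any treatment, where 10.0%, 5.78%, 8.12%, 7.95% and 5.80% of all genes did, in that order of treatments. Those that rose were IFI27L2 after 16 h in paclitaxel (1.40% of all genes), IFNAR2, IFI35 and IFI27L2 at 48 h (3.28%), IFI35 and IFI27L2 after 2 h in celecoxib (3.31%), ISG15, IFI35 and IFI27L2 after 16 h in celecoxib (7.37%), and IRF9 and IFI27L2 with the combination (5.96%). The medians over the 8 members were 0.08, 0.30, 0.14, 0.31 and 0.22, beside -0.07, 0.00, -0.02, 0.03 and 0.02 over all genes. All 8 members stood above the median of all genes after 48 h in paclitaxel and after 16 h in celecoxib on this scale. With 8 genes and 1 sample per condition these counts are a description of these libraries.

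**Figure D4:**
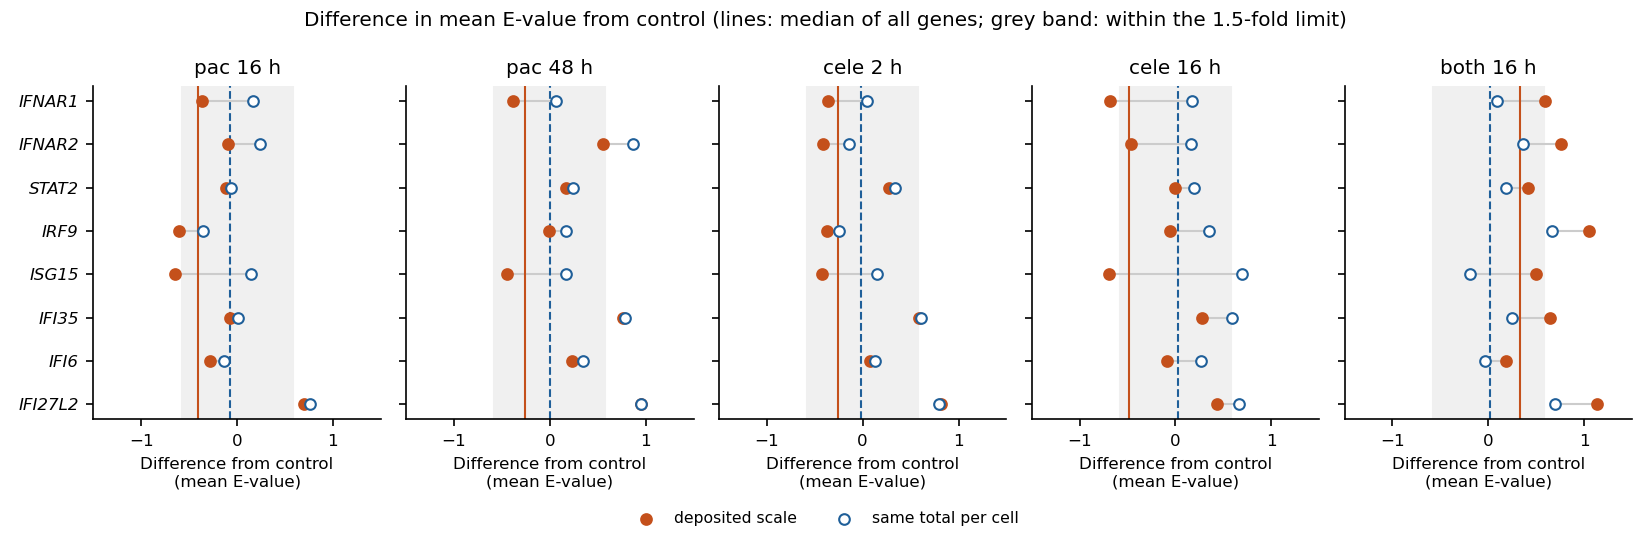
Difference in mean E-value from control (horizontal axis, log2 units) for the 8 genes in each treatment, as deposited (filled) and at the same total per cell (open), with the median of all genes on each scale as a line (solid and dashed) and the span within the 1.5-fold limit in grey. IFI27L2 lies right of the grey span in all treatments at the same total and in all but celecoxib 16 h as deposited, and ISG15 changes side with the scale after 16 h in celecoxib, from -0.69 to 0.69.

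The combination was also set against each single drug at 16 h, at the same total. Against paclitaxel IRF9 rose by 1.02, where 9.57% of all genes rose, and 0 members fell, where 1.64% did. STAT2, IRF9 and IFI35 had means of 0.21, 0.38 and 0.45 after 16 h in paclitaxel, too low to fall past the limit. The IRF9 difference was larger than that of 98.5% of all genes. Against celecoxib ISG15 fell by 0.88, where 4.39% of all genes fell, and 0 members rose, where 5.03% did. Over all cells, the other 7 members stayed within the limit against each drug.

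The conditions at 16 h form a 2 by 2 design, in which the combination can be set beside the sum of the single-drug differences from the shared control. At the same total the combination exceeded that sum by 0.68 for IRF9, and fell short of it for ISG15 (-1.03) and IFI27L2 (-0.72). For the other 5 genes the departure lay between -0.34 and 0.06, and the median over all genes was 0.06. As deposited the departure was 1.71 for IRF9, 1.84 for ISG15 and -0.01 for IFI27L2, beside a median of 1.33 over all genes. No error can be given to these sums with 1 sample per condition.

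After 48 h in paclitaxel the cells divide over index blocks and over states, and the means of several members were unlike in these groups. The 31 cells in block 4, the block of the control, had mean E-values of 1.61 for IFI35, 1.33 for IFI27L2 and 2.68 for IFNAR2, which are 1.09, 1.08 and 0.97 above the control on the deposited scale. The 22 cells in block 2 had 0.83, 1.02 and 1.67, which are 0.31, 0.77 and -0.04 from the control. IFI27L2 thus passed the limit in each block, and IFI35 and IFNAR2 in block 4 and not in block 2. The same block after 2 h in celecoxib gave 1.10 for IFI35, 1.08 for IFI27L2 and 1.30 for IFNAR2.

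The file also holds a state for each cell, from a classifier that had been trained on the expression values. The 48 h cells comprised 28 control-like and 25 suppressive cells. IFI35 was detected in 64.3% of the control-like and 32.0% of the suppressive cells, with mean E-values of 1.83 ± 1.52 and 0.67 ± 1.11. IFNAR2 was detected in 89.3% and 64.0%, with means of 2.69 ± 1.29 and 1.78 ± 1.56. IFI6 went the other way, with 32.1% and 52.0% and means of 0.97 ± 1.57 and 1.45 ± 1.54. As deposited the control-like cells exceeded the suppressive cells by 1.16 for IFI35, 0.92 for IFNAR2 and 0.64 for IFI27L2. They stood at -0.48 for IFI6, beside a median of 0.38 over all genes. With totals equalised these differences were 0.90, 0.49, 0.39 and -0.78, beside 0.07. Because the states were made from these same values, this is a description and no test. The study had picked IFI35, IFNAR2 and IFI27L2 for being raised in the control-like cells, so that their high values there follow from that choice. Of the 31 cells in block 4, 19 were control-like, and of the 22 in block 2, 9 were, so that neither split is free of the other.

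**Figure D5:**
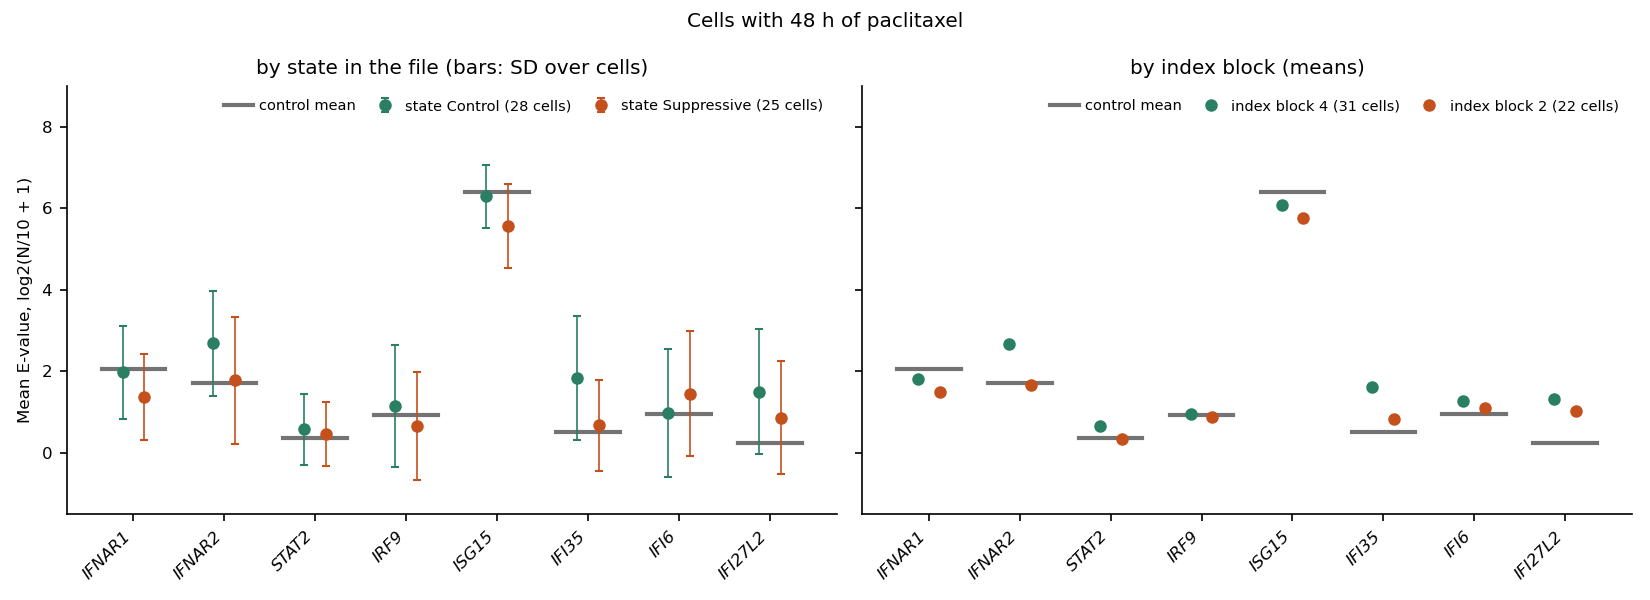
Mean E-value (vertical axis, log2(N/10 + 1)) of each gene in the cells kept 48 h in paclitaxel, by the state given in the file (left, with the SD over cells) and by index block (right), with the control mean as a grey bar. IFI35 and IFNAR2 are higher in the control-like cells and in block 4, while IFI6 is higher in the suppressive cells (1.45 against 0.97).

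The combination cells fell into block 1 (34 cells) and block 3 (25 cells), neither of which held control cells. Of the 5 members that rose with the combination as deposited, IRF9 and IFI27L2 passed the limit in each block, IRF9 by 0.76 in block 1 and 1.43 in block 3 and IFI27L2 by 1.24 and 0.97. The other 3 passed it in 1 block each. IFNAR1 differed from the control by 0.91 in block 1 and 0.14 in block 3, IFI35 by 0.99 and 0.17, and IFNAR2 by 0.53 and 1.08. With totals equalised the IRF9 difference was 0.46 in block 1, within the limit, and 0.92 in block 3, and that of IFI27L2 was 0.78 and 0.59. The combination was also compared with each single drug inside a shared block at the same total. In block 1 IRF9 exceeded paclitaxel 16 h by 0.83 and the other 7 members stayed within the limit. In block 3 ISG15 stood at -0.77 and IFI35 at -0.68 from celecoxib 16 h, both past the limit, whereas IFI35 was at -0.34 over all combination cells.

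The members were at most weakly related from cell to cell. Over the 28 pairs of members, Pearson r of the same-total E-values, centred within each condition, ran from -0.09 to 0.28 with a median of 0.03 (338 cells). The highest r was that of the FAM14 relatives IFI6 and IFI27L2. IFI35 and IFI27L2, which were both more often detected in treated cells, had r = 0.04. They were found together in 2 of 46 control cells, in 6 of 56 and 15 of 53 cells after 16 h and 48 h in paclitaxel, in 12 of 63 and 5 of 61 after 2 h and 16 h in celecoxib, and in 9 of 59 combination cells. At least 1 of these genes was found in 23.9% of the control cells and in 42.9%, 64.2%, 58.7%, 60.7% and 57.6% of the treated cells in the same order. The median cell had 4 of the 8 members, and 5 after 48 h in paclitaxel. None of the members was among the genes with a spread over cells above that of genes of like level in any condition where it could be judged, which for STAT2 was none.

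Among all other genes, those most like each member over the 338 cells reached r = 0.29 at most, too weak to be read as a relation. They were ING4, KCTD10 and ALDH6A1 for IRF9 (0.29, 0.25 and 0.23), GOLGA3, TMEM199 and C19orf40 for IFI35 (0.28, 0.24 and 0.22), and LGALS1, COL3A1 and SH3BGRL for IFI6 (0.28 each). For IFI27L2 they were IFI6, NBDY and the interferon-induced PARP14 (0.28, 0.23 and 0.22), and for ISG15 ELOB, POLD4 and MAP1A (0.25 each). For STAT2 they were MKL1, UPRT and SGCB (0.25, 0.23 and 0.22), for IFNAR1 STK25, CREBL2 and TBC1D32 (0.22, 0.21 and 0.20), and for IFNAR2 NAP1L4, FRA10AC1 and CDC6 (0.22 each).

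The remaining genes of the pathway were taken from lists. Of 8 interferon genes on the list, 0 were analysed. Of 9 other receptors, kinases and STAT factors, 8 were analysed. With the combination 4 of these rose as deposited (30.4% of all genes) and 1 at the same total (5.96%), with 0 falling on either scale. After 16 h and 48 h in paclitaxel and 2 h and 16 h in celecoxib, 2, 1, 1 and 2 fell as deposited. The shares of all genes were 37.3%, 26.6%, 25.7% and 43.9%. At the same total 1, 0, 1 and 0 fell, beside 10.0%, 5.78%, 8.12% and 7.95%. On that scale 1 rose, after 16 h in celecoxib, beside 7.37%. IFNGR1, a chain of the interferon gamma receptor, went from 1.48 to 2.69 (1.20 as deposited, 0.64 at the same total). IFI27L1, a FAM14 gene that also lies on chromosome 14, went from 2.26 ± 1.40 in the control to 3.74 ± 1.79 with the combination (1.48 and 0.88). It was within the limit in the 4 single-drug conditions on both scales. IFI27L1 therefore rose with the combination, as IFI27L2 did, and did not share the rises of IFI27L2 with single drugs.

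Of 61 other interferon-induced genes, 27 were analysed. As deposited 0, 1, 2, 0 and 7 of them rose in the 5 treatments, beside 0.0932%, 0.922%, 1.12%, 0.383% and 30.4% of all genes. On that scale 8, 6, 5, 7 and 1 fell, beside 37.3%, 26.6%, 25.7%, 43.9% and 1.76%. At the same total 1, 2, 2, 2 and 2 rose, beside 1.40%, 3.28%, 3.31%, 7.37% and 5.96% of all genes, and 1, 1, 2, 1 and 1 fell, beside 10.0%, 5.78%, 8.12%, 7.95% and 5.80%. Their median at the same total was -0.05, 0.04, 0.01, 0.19 and 0.06, beside -0.07, 0.00, -0.02, 0.03 and 0.02 over all genes. The largest difference past the limit on both scales was that of BST2, or tetherin, a surface protein that holds back budding virus. Its mean E-value was 5.23 in the control, 5.20 and 6.22 after 16 h and 48 h in paclitaxel, 5.85 and 5.32 after 2 h and 16 h in celecoxib, and 7.30 with the combination, so that it rose by 0.99, 0.62 and 2.07 as deposited after 48 h in paclitaxel, 2 h in celecoxib and with the combination. BST2 rose with totals equalised in all 5 treatments, by 0.72, 1.59, 1.16, 1.39 and 1.35. LAP3, an aminopeptidase, went from 3.53 to 1.63 after 16 h in celecoxib (-1.89 and -0.98). UBE2L6, the enzyme that hands ISG15 on to its targets, went from 1.88 to 3.66 with the combination (1.79 and 1.04). Of the 5 analysed genes of ISG15 attachment and removal, 3 rose with the combination as deposited (30.4% of all genes) and 1 at the same total (5.96%). With totals equalised 2 of the 5 also rose after 48 h in paclitaxel (3.28% of all genes) and 2 after 16 h in celecoxib (7.37%), and none of the 5 fell in any treatment on either scale. HERC5 and TRIM25, with deposited control means of 0.35 and 0.45, were too low to fall past the limit on that scale.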

How the data were processed

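Single A2780 cells of 6 conditions were captured on the Fluidigm C1 system and sequenced by Smart-seq2. Per the study's methods and the submitters' processing notes, the authors trimmed reads with Trim Galore and quantified them with RSEM 1.3.0 and Bowtie2 on GENCODE 28 transcripts of hg38 plus spike-in RNAs. The deposited unit is the E-value on a log2 scale, log2(N/10 + 1), N being TPM divided by the ratio of the strongest spike-in in that cell to its mean over cells. The authors removed cells with low housekeeping expression, and set a detection limit of over 30% of cells in 1 or more conditions on genes. All 338 columns were matched to a sample by name.

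From these values, means, SDs, detection shares with exact Clopper-Pearson 95% intervals, and differences between conditions were computed in Python 3.11.15 with scipy 1.17.1, numpy 2.4.6 and pandas 2.3.3, and plotted with matplotlib 3.10.9. A difference was counted past 1.5-fold, with no test, since each condition is 1 sample. For the second scale, the linear values of each cell were set to the median total of all cells and the E-values computed again. It was the main scale for the combination against single drugs. A gene was judged high in spread when log10 of SD over mean was more than 2 SDs above the mean of its bin of genes (100 bins, mean E-value above 1). The counting step was tried on resampled control cells, with changes larger than 1.5-fold put into genes of control mean E-value above 1. It therefore does not cover IFI6, IRF9, IFI35, STAT2 and IFI27L2, which lay below that level in the control. Gene positions are from GENCODE 44, in which 9632 of 9664 identifiers were found, and promoters from RefSeq on GRCh38.p14. Sequences of proteins were not used here.

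The members and lists were chosen with earlier results of these data known. All 9 members were to be named, with up to 3 genes per list that had the largest difference among those past the limit in 1 direction on both scales, the 3 genes most like each member over cells, and genes overlapping a member. One named gene of the lists is not reported here. The alternatives were the other scale, linear means, a pseudocount of 1, medians, no detection limit or one of 50%, a 2-fold limit, single index blocks, cells without wells noted as empty or debris, and cells with at least 5500 genes.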

Additional observations from a re-analysis of the deposited data

How the results depend on the processing

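Each difference rests on 1 sample per condition, read depth is not known, and genes in few cells are limited by dropout, so that the counts below are descriptions. Of 152 counts of members under the alternatives, 107 were within 1.5 times the main count and 45 were not. Of 580 differences of single members, 424 kept their direction and side of the limit or moved little, 65 moved, 37 dropped inside the limit, 47 went past it and 7 that had been past it changed sign. Differences within the limit that changed sign were counted as moved. An example is IFNAR1 after 16 h in paclitaxel, at -0.37 as deposited and 0.17 at the same total. The cause was not tested.

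With the same total per cell, the members down were 0 after 16 h in paclitaxel and 0 after 16 h in celecoxib, and those up were 3 after 16 h in celecoxib and 2 with the combination. ISG15 changed sign to 0.15 after 16 h in paclitaxel and 0.69 after 16 h in celecoxib, and IFNAR1 to 0.17 after 16 h in celecoxib. Setting the cells to the median total of the control, an alternative chosen after seeing the data, gave the same counts (0, 0, 3 and 2), ISG15 at 0.15 and 0.69, and IFNAR1 at 0.14. On the deposited scale, 5 members were up in the combination against paclitaxel and 5 up and 0 down against celecoxib, with ISG15 at 1.18.

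Linear means gave 5 down after 16 h in paclitaxel, 1 down after 2 h in celecoxib, 4 down and 1 up after 16 h in celecoxib, and, in the combination, 2 up against paclitaxel and 2 down against celecoxib. A pseudocount of 1 gave 1 down after 48 h in paclitaxel, 3 down at 2 h and 2 up after 16 h in celecoxib, and, in the combination, 2 up against paclitaxel and 1 up and 2 down against celecoxib. Medians over cells gave 0 up at 16 h and 1 up after 48 h in paclitaxel, 0 up and 1 down after 2 h in celecoxib, 2 up with the combination and 1 up against celecoxib. Detection in over 50% of cells gave 0 up and 1 down after 16 h in paclitaxel, 0 up at 48 h, 0 up after 2 h in celecoxib, 2 up with the combination and 0 up against paclitaxel. The 2-fold limit gave 0 up and 0 down after 16 h in paclitaxel, 0 up at 48 h, 0 up at 2 h and 0 down after 16 h in celecoxib, 2 up with the combination and 0 down against celecoxib. Block 2 alone gave 1 up and 1 down after 48 h in paclitaxel, and block 3 alone gave 2 down in the combination against celecoxib. No paired analysis was possible because each condition counts as 1 sample and the numbers in the labels pair no cells.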

Other observations

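Of 12 negative regulators of the interferon response on a list, 8 were analysed. As deposited 5, 4, 4 and 6 of these fell after 16 h and 48 h in paclitaxel and after 2 h and 16 h in celecoxib, beside 37.3%, 26.6%, 25.7% and 43.9% of all genes, and 2 rose with the combination, beside 30.4%. At the same total 3, 2, 2 and 1 fell in the single-drug conditions, beside 10.0%, 5.78%, 8.12% and 7.95% of all genes, and 1 rose, after 16 h in celecoxib, beside 7.37%. PIAS1 and PIAS2, inhibitors of activated STAT proteins, went from 2.99 to 1.71 and from 2.09 to 0.85 after 16 h in paclitaxel, which is -1.29 and -1.23 as deposited and -0.75 and -0.86 at the same total. PTPN2, a phosphatase that acts on JAK and STAT proteins, went from 3.70 to 2.57 after 48 h in paclitaxel (-1.14 and -0.61).

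Of 20 genes of nucleic acid sensing and of the IRF family, 10 were analysed. As deposited 4, 3, 3 and 3 of these fell in the single-drug conditions in the same order, beside 37.3%, 26.6%, 25.7% and 43.9% of all genes, and 2 rose with the combination, beside 30.4%. At the same total 3, 0, 1 and 1 fell, beside 10.0%, 5.78%, 8.12% and 7.95%, and 0 rose in any treatment. IRF3, the factor that starts interferon transcription after sensing, was at 2.31 in the control and 0.89 after 16 h in celecoxib (-1.42 as deposited and -0.81 at the same total). The TBK1 adaptors AZI2 and TANK went from 3.78 to 2.50 and from 1.90 to 0.82 after 16 h in paclitaxel, which is -0.71 and -0.77 at the same total.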
